A study of Rattus norvegicus with 7 samples.

Results

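Glucose use in the vocal fold muscle was examined through 41 genes of glycolysis, glycogen metabolism and glucose or lactate transport, chosen by name, of which 40 were measured among 14702 genes. The glucose transporter gene Slc2a3 was not found among the measured genes. RNA sequencing had been done on the thyroarytenoid muscle, the muscle inside the vocal fold, of 3 Pink1-/- and 4 WT female Long Evans rats, all 8 months old. The Pink1-/- rats had both copies of Pink1, a mitochondrial kinase gene, knocked out, and no treatment is named for either genotype. Each library is labelled with a rat number of its own, and no litter, day or batch is given. All fold changes, p-values and adjusted p-values come from the authors' deposited table of Pink1-/- over WT; it holds no value per rat, so the spread between rats and the depth of each library are unknown here. Pink1 itself stood at -4.91 on the log2 scale in the authors' deposited table (adjusted p 8.24e-49), an implied 8.94 CPM in Pink1-/- and 269 CPM in WT muscle.

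Glycolysis splits glucose into pyruvate and yields ATP without oxygen, and lactate dehydrogenase turns pyruvate into lactate when flux is high. Muscle stores glucose as glycogen, which phosphorylase breaks down at the onset of contraction. Several steps are encoded by a family of genes, with one member typical of muscle (Pfkm, Pgam2, Eno3, Pygm) and others typical of brain, liver or most tissues. Thyroarytenoid muscle in rats is made mostly of fast fibres, which rely strongly on this pathway. Of 7 skeletal muscle markers 6 were measured, with a summed level of 25448 CPM (reads per gene scaled to a fixed library total) in Pink1-/- muscle and 15727 CPM in WT muscle. These levels were implied from each gene's mean CPM and fold change, assuming libraries of equal size.

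The enolase and phosphoglycerate mutase genes serve as examples of the comparison made below, between a muscle form and a partner from other tissues. Their promoter windows, 250 bases before to 50 bases after the start of the gene, are given 5′ to 3′ from RefSeq on the rat build GRCr8, with capitals marking every match to 3 motifs on either strand: the E-box CAGCTG, bound by the myogenic MyoD family, the core ACGTG, bound by hypoxia-inducible factors, and the TATA box TATAAA. Eno3 lies at chr10:55868936-55869235 on the + strand, Eno2 at chr4:159267171-159267470 on the - strand, Pgam2 at chr14:84897825-84898124 on the - strand and Pgam1 at chr1:250672902-250673201 on the + strand.
Eno3: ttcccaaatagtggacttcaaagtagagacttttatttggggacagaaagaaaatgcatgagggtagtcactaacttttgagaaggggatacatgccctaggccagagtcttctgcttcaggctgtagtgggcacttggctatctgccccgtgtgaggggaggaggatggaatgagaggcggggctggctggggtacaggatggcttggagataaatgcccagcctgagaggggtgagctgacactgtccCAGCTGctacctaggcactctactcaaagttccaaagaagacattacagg
Eno2: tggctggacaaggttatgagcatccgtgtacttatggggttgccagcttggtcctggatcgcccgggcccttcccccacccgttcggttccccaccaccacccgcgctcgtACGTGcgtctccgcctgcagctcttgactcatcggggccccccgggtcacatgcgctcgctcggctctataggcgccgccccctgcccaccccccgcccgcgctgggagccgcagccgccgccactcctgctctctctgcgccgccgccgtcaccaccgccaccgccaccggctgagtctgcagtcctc
Pgam2: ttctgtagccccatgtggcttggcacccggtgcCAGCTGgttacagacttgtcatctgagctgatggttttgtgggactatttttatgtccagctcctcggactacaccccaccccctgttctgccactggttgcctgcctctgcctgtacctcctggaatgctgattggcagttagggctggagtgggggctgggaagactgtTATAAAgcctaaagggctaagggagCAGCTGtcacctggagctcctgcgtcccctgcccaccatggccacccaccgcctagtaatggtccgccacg
Pgam1: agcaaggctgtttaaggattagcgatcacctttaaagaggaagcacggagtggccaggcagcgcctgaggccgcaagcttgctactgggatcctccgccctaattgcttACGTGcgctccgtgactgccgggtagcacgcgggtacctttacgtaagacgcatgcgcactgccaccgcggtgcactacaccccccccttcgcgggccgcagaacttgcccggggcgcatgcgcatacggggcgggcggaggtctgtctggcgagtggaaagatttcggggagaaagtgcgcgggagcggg
The muscle forms Eno3 and Pgam2 held 1 and 2 E-boxes in these windows, and their partners Eno2 and Pgam1 each held 1 hypoxia core and no E-box. Eno1, the ubiquitous enolase, also held the hypoxia core, but its window is not printed. Its log2 fold change in the authors' deposited table was 0.81, close to 0.87 for Eno3, and Pgam1 was also above 0, at 0.19. Among all members, 36 matched 41 windows in RefSeq. An E-box of these letters was found in 24.4% of those windows, against 15.1% of all 33469 promoter windows and 16.2% of the windows of measured genes. It was found in 5 of the 8 muscle forms that had a window (Aldoa, Eno3, Hk2, Pgam2 and Pygm) and in 1 of 12 partners, Pygl. The hypoxia core was found in 48.8% of the members' windows, against 19.3% of all windows and 23.8% of the windows of measured genes. Of the partners, 9 of 12 held the hypoxia core, as did 4 of the 8 muscle forms. The TATA box was found in 12.2% of the members' windows, against 14.2% of all windows and 7.40% of the windows of measured genes. The motifs were chosen after the windows had been seen, and describe letters only, with base composition not matched between the sets.

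Most of the pathway lay higher in Pink1-/- muscle, but few single genes passed the test. Of 40 measured members, 31 had a log2 fold change above 0 in the authors' deposited table, 77.5% against 48.0% of all genes, and their median was 0.69, or 1.62-fold, against -0.02 over all genes. At an adjusted p under 0.05 only 2 members were called. Slc16a3, the lactate exporter of glycolytic muscle, rose, and Eno2, the neuronal enolase, fell. Over all genes 3.05% were called, 1.37% higher and 1.68% lower, so 2 of 40 is close to that background. At an unadjusted p under 0.05, 16 of the 40 members (40%) were higher and 2 were lower, against 9.04% and 7.99% of all genes. Fewer cells of one type and less RNA per cell cannot be told apart in whole tissue.

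**Figure D1:**
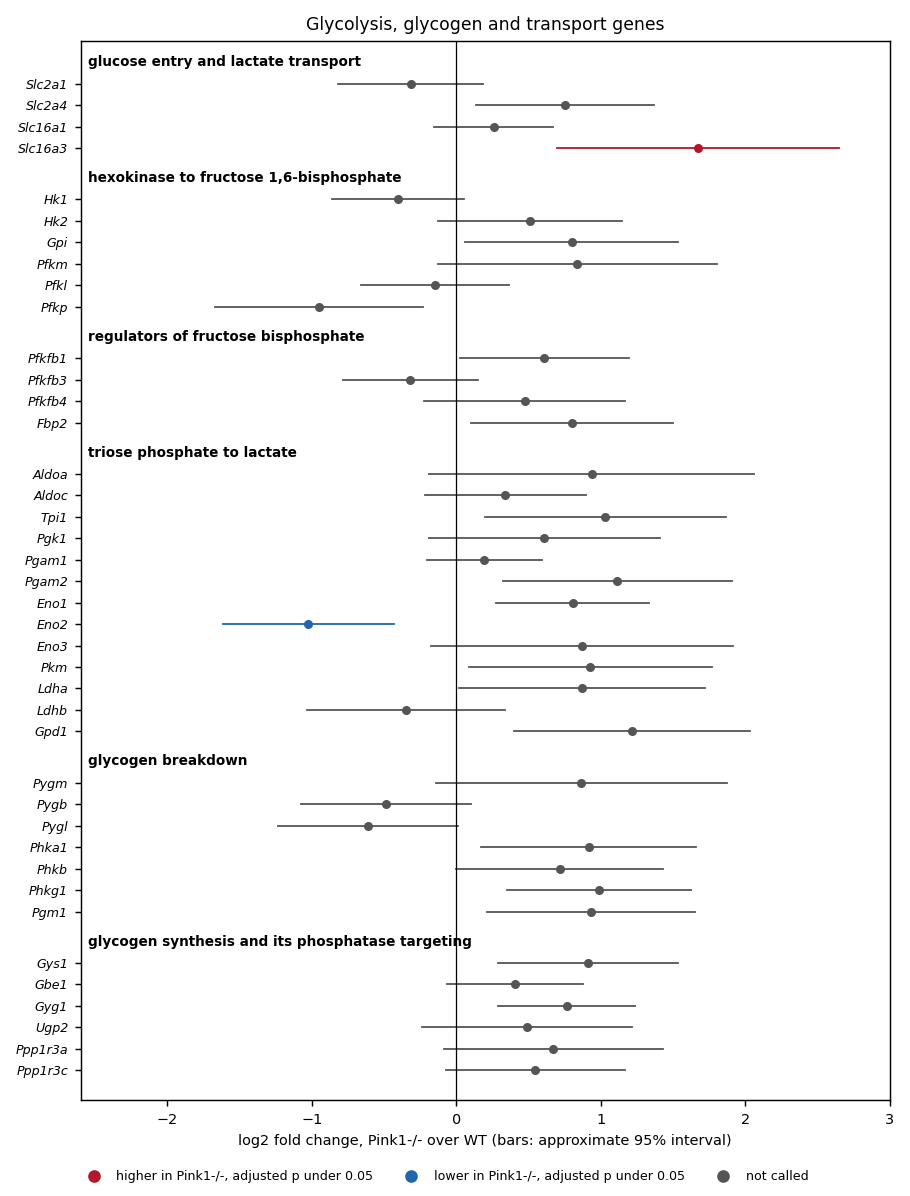
Log2 fold change of Pink1-/- over WT (x axis) for the 40 measured genes, grouped by step from top to bottom; points are the authors' values and bars the approximate 95% interval. The bars of 16 genes lie above 0 and those of 2 below it; Slc16a3 stands furthest right at 1.67 and Eno2 furthest left at -1.03.

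An approximate standard error (SE) was implied for each log2 fold change by its likelihood ratio, whose square root is the ratio of the change to its error, and the 95% interval follows from it. By that measure 16 members had an interval above 0, 2 below 0 (Eno2 and Pfkp) and 22 included 0. The median SE of the members was 0.35, against 0.27 over all genes. For the most abundant muscle enzymes it was larger but like the median of genes with as many reads. The SE of Aldoa was 0.57, and genes within 0.5 log2 CPM of it, Aldoa included, had a median of 0.57. How many genes lay within that range is not given here.

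Glucose enters muscle through Slc2a4, the insulin-regulated transporter, and through Slc2a1, the transporter of most cells; lactate crosses the membrane through Slc16a1, which favours uptake, and Slc16a3, which favours export. Slc16a3 rose 3.19-fold in the authors' deposited table (log2 fold change 1.67, adjusted p 0.0328), and its interval ran from 1.62-fold to 6.27-fold. Its implied level was 81.2 CPM in Pink1-/- muscle and 25.5 CPM in WT muscle. The call ended with equal summed CPM in both genotypes (adjusted p 0.0618), with centring on muscle fibre genes (0.0917) and with every likelihood ratio divided by 1.96, the table's median excess over the chi-square distribution (0.683), all above 0 in log2 fold change. With those divided ratios the call of Eno2 ended too (adjusted p 0.663). The implied SE of Slc16a3, 0.50, was 2.36 times the median of genes of like level, the widest such ratio among the members. Slc2a4 stood at 0.75 in the authors' deposited table (adjusted p 0.179), an implied 559 CPM in Pink1-/- and 332 CPM in WT muscle. Slc16a1 stood at 0.26 and Slc2a1 at -0.32 in the authors' deposited table, neither called (adjusted p 0.577 and 0.578). Endothelium also uses Slc2a1, and 3 of 5 measured endothelial markers were above 0, as were 4 of 5 red blood cell markers. The summed level of the endothelial markers was 281 CPM in Pink1-/- and 258 CPM in WT muscle, and that of the red blood cell markers was 492 CPM in Pink1-/- and 354 CPM in WT muscle. Their part in the value of Slc2a1 was not tested.

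In the first steps of glucose breakdown the muscle and other forms lay on opposite sides of 0. Of the 6 genes from hexokinase to phosphofructokinase, 3 were above 0 and none was called. Hk2, the insulin-responsive hexokinase of muscle, stood at 0.51 and Hk1, the hexokinase of brain and red blood cells, at -0.40 in the authors' deposited table (adjusted p 0.434 and 0.381). Gpi, glucose phosphate isomerase, which has no partner gene, stood at 0.80. Pfkm, the muscle phosphofructokinase, stood at 0.84 in the authors' deposited table, an implied 3640 CPM in Pink1-/- and 2037 CPM in WT muscle (adjusted p 0.389). Pfkl, the liver form, stood at -0.15, while Pfkp, the platelet form, stood at -0.95 in the authors' deposited table (adjusted p 0.135). The implied level of Pfkp was 4.16 CPM in Pink1-/- and 8.05 CPM in WT muscle.

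Enzymes that set the level of fructose bisphosphates went mostly the way of the pathway. Fbp2, the muscle fructose bisphosphatase, stood at 0.80, and Pfkfb1, a bifunctional enzyme of liver and muscle, at 0.61 in the authors' deposited table. Pfkfb4 stood at 0.47 and Pfkfb3, a form induced by hypoxia and growth signals, at -0.32. None of the 4 was called, with adjusted p-values of 0.212 to 0.534 in the authors' deposited table.

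The payoff phase, in which triose phosphates become pyruvate and lactate, held 13 members, 11 of them above 0 with a median of 0.87 or 1.83-fold. Eno2 was the only one called. It fell by 1.03 on the log2 scale in the authors' deposited table (adjusted p 0.0296), to an implied 11.6 CPM in Pink1-/- muscle, against 23.6 CPM in WT muscle. Its interval ran from 1.35-fold to 3.06-fold lower. The other enolases were on the other side of 0, Eno3, the muscle form, at 0.87 (adjusted p 0.414) and Eno1, the ubiquitous form, at 0.81 (adjusted p 0.0724) in the authors' deposited table. Eno1 reached an implied 391 CPM in Pink1-/- muscle and 224 CPM in WT muscle. Eno3 was at 5143 CPM in Pink1-/- and 2818 CPM in WT muscle.

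Eno2 is a standard marker of neurons, and neuronal genes were lower in the same comparison. Of 7 neuron markers, 6 were measured, all were below 0 and 5 fell, with a median log2 fold change of -4.05. Their summed level was 6.26 CPM in Pink1-/- muscle and 57.3 CPM in WT muscle. The 2 with the smallest p were Snap25, of synaptic release, at -5.42, and Stmn2, of growing axons, at -2.75 in the authors' deposited table. All 8 Schwann cell and nerve markers were below 0 as well and 5 of them fell; their summed level was 268 CPM in Pink1-/- and 493 CPM in WT muscle. The marker Rbfox3 was not found among the measured genes. Eno2 fell less than each of the 6 neuron markers on the log2 scale, and the part of nerve tissue in its value was not tested. A second gene described as gamma-enolase-like, LOC100911625, stood at -8.02 in the authors' deposited table (adjusted p 0.00977) but at under 2 CPM in either genotype, and reads could be split between it and Eno2. With both summed the log2 fold change was -1.13.

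The remaining payoff enzymes were above 0 except for Ldhb. Gpd1, the glycerol phosphate dehydrogenase that links glycolysis to lipid synthesis and to the mitochondrial shuttle, stood at 1.22 in the authors' deposited table (adjusted p 0.0805). Its implied level was 420 CPM in Pink1-/- and 181 CPM in WT muscle. Gpd1 is also abundant in fat cells, whose 6 markers had a median of -0.71, 2 of them above 0; the 2 with the smallest p were Lipe at 0.88 and Fabp4 at 0.92 in the authors' deposited table, and none was called. The summed level of the fat cell markers, most of it Fabp4, was 190 CPM in Pink1-/- and 109 CPM in WT muscle, and Plin1 and Lep were under 2 CPM in either genotype. The part of fat cells in the value of Gpd1 was not tested. Pgam2, the muscle phosphoglycerate mutase, stood at 1.11 in the authors' deposited table (adjusted p 0.105), an implied 1120 CPM in Pink1-/- and 518 CPM in WT muscle. Pgam1, the form of brain and most tissues, stood at 0.19 (adjusted p 0.685). Tpi1, triose phosphate isomerase, stood at 1.03, Aldoa, the muscle aldolase, at 0.94, Pkm, pyruvate kinase, at 0.93, Pgk1, phosphoglycerate kinase, at 0.61 and Aldoc, the brain aldolase, at 0.34 in the authors' deposited table. None of these 5 was called. The table gives 1 value for Pkm, so its splice forms cannot be told apart.

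Lactate dehydrogenase is built from Ldha, which predominates in fast muscle, and Ldhb, which predominates in heart and slow muscle. Ldha stood at 0.87 and Ldhb at -0.35 in the authors' deposited table, with adjusted p-values of 0.280 and 0.669. The implied level of Ldha was 1097 CPM in Pink1-/- and 601 CPM in WT muscle. For Ldhb it was 171 CPM in Pink1-/- and 217 CPM in WT muscle. Slow fibre genes were lower in the same comparison, 10 of 11 below 0 with a median of -1.12, and 2 fell, Myh7 at -5.38 and Myl3 at -2.30 in the authors' deposited table. The summed level of the slow fibre genes was 3023 CPM in Pink1-/- and 3212 CPM in WT muscle, most of it from myoglobin and Atp2a2, and their part in the value of Ldhb was not tested.

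Glycogen breakdown showed the same division. Phosphorylase kinase, which switches phosphorylase on, had its muscle catalytic subunit Phkg1 at 0.98 (adjusted p 0.0679), its muscle regulatory subunit Phka1 at 0.92 and its beta subunit Phkb at 0.72 in the authors' deposited table. Phkg1 stood at an implied 245 CPM in Pink1-/- and 124 CPM in WT muscle. Pygm, the muscle phosphorylase, stood at 0.87 (adjusted p 0.393), an implied 3719 CPM in Pink1-/- and 2041 CPM in WT muscle. The brain form Pygb stood at -0.49 and the liver form Pygl at -0.61 in the authors' deposited table, also not called. Pgm1, phosphoglucomutase, which passes the released glucose phosphate to glycolysis, stood at 0.93 (adjusted p 0.147).

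All 6 genes of glycogen synthesis were above 0, with a median of 0.61 or 1.52-fold, and none was called. Closest to the threshold was Gyg1, glycogenin, the protein primer of each glycogen particle, at 0.76 in the authors' deposited table (adjusted p 0.0507). Its implied level was 148 CPM in Pink1-/- and 87.2 CPM in WT muscle. Gys1, muscle glycogen synthase, stood at 0.91 (adjusted p 0.0855), at 508 CPM in Pink1-/- and 270 CPM in WT muscle. Ppp1r3a and Ppp1r3c, which bring a phosphatase to glycogen, stood at 0.67 and 0.55, Ugp2, which makes the glucose donor, at 0.49 and Gbe1, the branching enzyme, at 0.41 in the authors' deposited table. With Gyg1 and Gys1, 5 uncalled members had an adjusted p between 0.05 and 0.1; the others were Phkg1, Eno1 and Gpd1.

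Set side by side, each muscle form had a higher log2 fold change than its partner. In all 8 pairs that set Pfkm, Pgam2, Eno3, Ldha or Pygm against a partner form, the difference was above 0, at 0.06 to 1.89. The partner of Ldha, Ldhb, predominates in heart and slow muscle, so that pair sets fast muscle against slow muscle. The 5 muscle forms lay between 0.84 and 1.11, and 6 of their 8 partners were below 0. The same held in 4 further pairs, Hk2 against Hk1 (0.91), Aldoa against Aldoc (0.60), Slc2a4 against Slc2a1 (1.07) and Slc16a3 against Slc16a1 (1.42). Over all 12 pairs the median difference was 1.14 on the log2 scale. Some pairs share a muscle form and all come from the same rats, so the pairs are not independent. The smallest difference was between Eno3 and Eno1, 0.06. Epithelial, gland and fibroblast markers lay mostly below 0. All 6 measured markers of squamous epithelium were below 0 (median -1.31), 2 of them fell, and their sum was 682 CPM in Pink1-/- and 1459 CPM in WT muscle. For respiratory epithelium and gland 6 of 7 were below 0 (median -0.70), 2 fell, and the sum was 1013 CPM in Pink1-/- and 12482 CPM in WT muscle. Most of that sum was the mucin Muc5b, at an implied 633 CPM in Pink1-/- and 10735 CPM in WT muscle, which stood at -4.08 in the authors' deposited table and was not called (adjusted p 0.150). Fibroblast markers summed to 2129 CPM in Pink1-/- and 2938 CPM in WT muscle (5 of 5 below 0, none called). The part of these tissues in the partners' values was not tested. Macrophage markers were all above 0 (6 of 6, median 0.20), cartilage markers were above 0 in 1 of 4 (median -0.65), and neither list held a called gene.

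The largest differences were between Eno3 and Eno2, 1.89, and between Pfkm and Pfkp, 1.79. A test of a difference between genes needs their covariance over rats, which the table does not give. The widest 95% interval that any covariance allows was therefore computed from both SEs. It ran from 0.26 to 3.53 for Eno3 minus Eno2, from 0.11 to 3.48 for Pfkm minus Pfkp and from 0.03 to 2.80 for Slc16a3 minus Slc16a1, and included 0 in the other 9 pairs. These intervals are not adjusted for the 12 pairs. With SEs enlarged by 1.40, the square root of the median excess of the table's likelihood ratios over the chi-square distribution, all 12 included 0. Differences between members do not depend on how libraries were scaled.

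**Figure D2:**
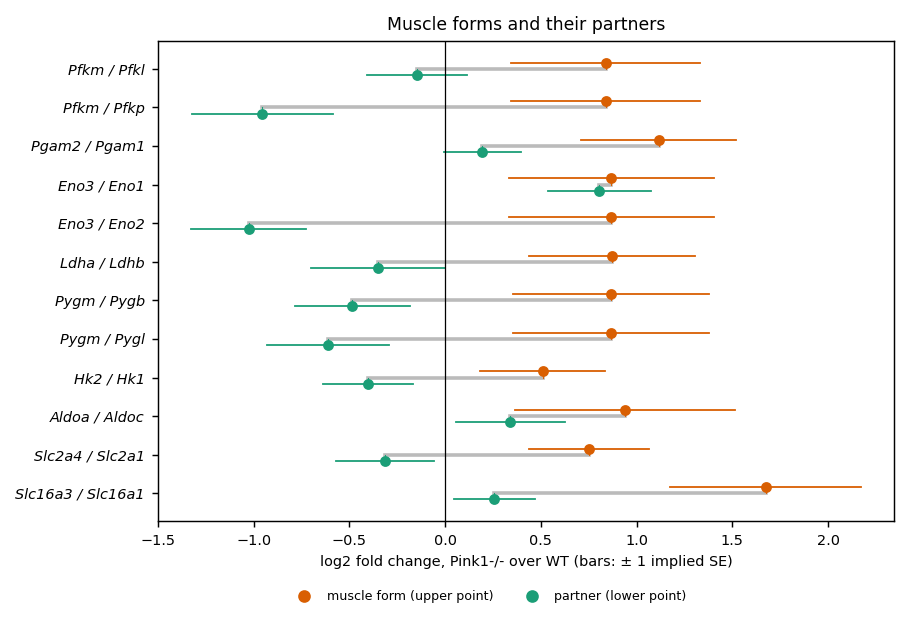
Log2 fold change of Pink1-/- over WT (x axis) of the muscle form (upper point) and its partner (lower point) in 12 pairs, with bars of 1 implied SE on each side. Every muscle form lies right of its partner, by 1.89 for Eno3 and Eno2 and by 0.06 for Eno3 and Eno1.

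Members with more reads tended to lie higher. Of 24 members with a mean of at least 7 log2 CPM (128 CPM), 23 were above 0 with a median of 0.85; Ldhb was the exception. Of the 16 with fewer reads, 8 were above 0 with a median of 0.02. Over all genes, 63.5% of 1048 genes at or above that level and 46.8% of the rest were above 0, with medians of 0.17 and -0.03. Across the 40 members, which share the same 7 libraries, the log2 fold change and the mean log2 CPM had a Pearson correlation of 0.66, against 0.24 across all genes, given as a description. CPM is not scaled by gene length, so this orders genes by reads, not by transcript number.

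**Figure D3:**
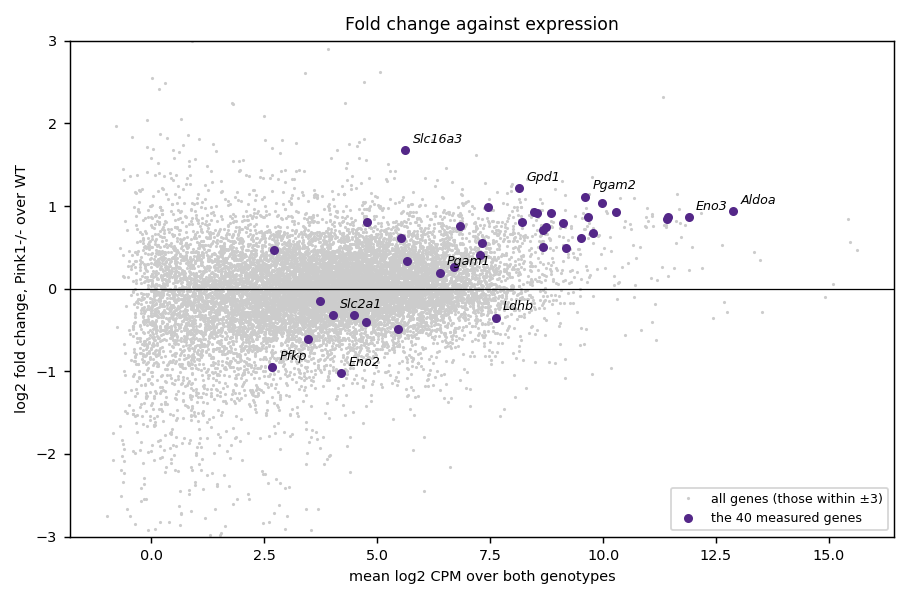
Log2 fold change of Pink1-/- over WT (y axis) against mean log2 CPM (x axis) for the 40 measured members (purple) over all genes (grey, those within 3 of 0). At 7 or more log2 CPM, 23 of 24 members lie above 0.

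Shared structural and fast fibre genes lay in the same range as the muscle forms. Slow fibre genes did not, with 10 of 11 below 0 and a median of -1.12. All 14 measured structural genes shared by fibre types were above 0 with a median of 0.75, and 1, the sarcoglycan Sgca, rose by 1.17 in the authors' deposited table (adjusted p 0.00393). After Sgca, those with the smallest p were Cacna1s, the muscle calcium channel, at 1.13, Cav3, muscle caveolin, at 0.64 and Des, desmin, at 1.01. The fast fibre genes, 12 measured, were likewise all above 0 (median 0.90) and none was called; Mybpc2 stood at 1.30, Tmod4 at 0.82, Myoz1 at 0.86 and Tnni2 at 0.98 in the authors' deposited table. The fast fibre genes Myh1, Myh2 and Atp2a1 were not found among the measured genes. The medians of the 9 muscle forms in a pair (0.87) and of the 19 members in no pair (0.76) were close to these. The summed level of the 40 members was 37209 CPM in Pink1-/- and 20689 CPM in WT muscle, or 1.80 times as high, that of the fast fibre genes 1.82 times and that of the shared structural genes 1.59 times. Centred on the median of the shared structural genes, 18 of the 40 members were above 0 and their median was -0.060. A higher level per fibre and a larger share of fibre RNA in the tissue cannot be told apart in these values. The part of the mix of fast and slow fibres in the members' values was not tested.

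**Figure D4:**
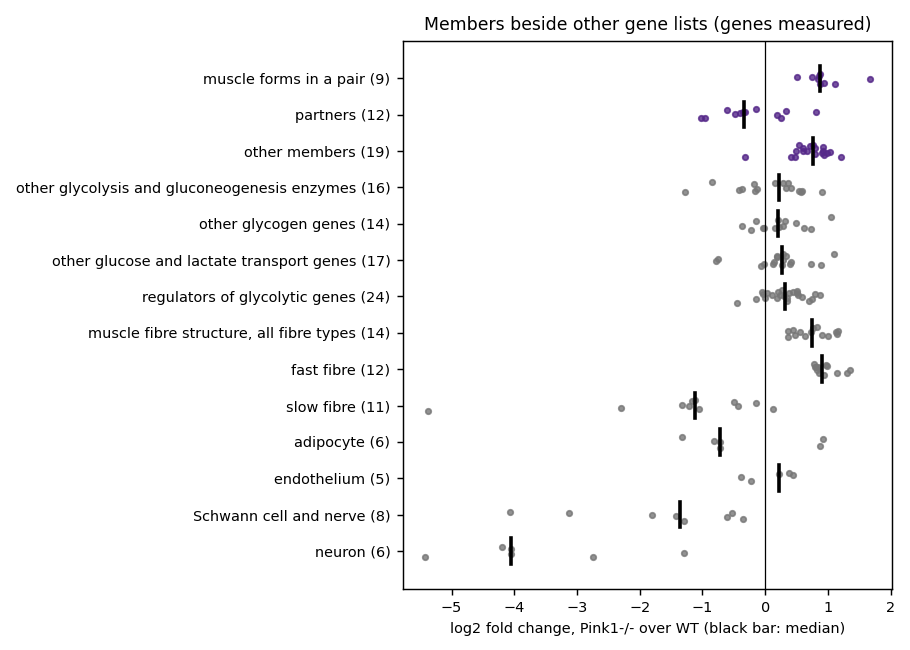
Log2 fold change of Pink1-/- over WT (x axis) of single genes (points) in each list, with the median as a black bar and the number measured in parentheses. The muscle forms (median 0.87) and other members (0.76) lie with the fast fibre genes (0.90), the partners (-0.33) lie below 0, and neuron markers lie furthest left (-4.05).

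Other genes of the pathway, listed by function, had medians nearer 0, and also fewer reads. The median log2 CPM of the 4 lists was 4.41 to 5.81, against 7.89 for the members. The part of read level in the medians was not tested. Each of the 4 lists held 1 call, each higher in Pink1-/- muscle, among 16, 14, 17 and 24 measured genes. Over all genes 3.05% were called, 1.37% higher. A single call is too few to set a list apart from that share. With equal summed CPM the calls of Tigar (adjusted p 0.0607), Gaa (0.0789) and Esrra (0.115) ended, and that of Slc16a10 stood (0.0417); all 4 ended with centring on muscle fibre genes or divided likelihood ratios. Of 23 further enzymes of glycolysis and gluconeogenesis, 16 were measured, 9 lay above 0 (median 0.23), and 1 rose, Tigar, a phosphatase that restrains glycolysis, by 0.91 in the authors' deposited table (adjusted p 0.0104). Its implied level was 34.8 CPM in Pink1-/- and 18.5 CPM in WT muscle. Next by p were Bpgm, bisphosphoglycerate mutase (0.58), Ldhd, which oxidises D-lactate (0.53), and Me1, malic enzyme (0.59), none called. Of 14 further glycogen genes measured, 9 lay above 0 (median 0.21), and 1 rose, Gaa, the lysosomal glucosidase that degrades glycogen, by 1.05 in the authors' deposited table (adjusted p 0.0258). Its level was 177 CPM in Pink1-/- and 85.6 CPM in WT muscle. Stbd1, which tethers glycogen for lysosomal breakdown, stood at 0.73, Epm2a, the glycogen phosphatase laforin, at 0.50 and Pgm2 at -0.37.

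Of 17 further transport and insulin signalling genes, all measured, 13 had a value above 0 (median 0.26), and 1 rose, Slc16a10, a transporter of aromatic amino acids and thyroid hormone in the lactate transporter family, by 1.10 in the authors' deposited table (adjusted p 0.00812). Tbc1d1, which holds back Slc2a4 vesicles until muscle contracts, stood at 0.89 (adjusted p 0.0570), Slc37a4, a glucose phosphate carrier, at 0.73 and Slc2a13, a myo-inositol transporter, at -0.75. Bsg, the chaperone that carries Slc16a1 and Slc16a3 to the membrane, stood at 0.14 in the authors' deposited table. Of 24 measured regulators, 19 lay above 0 (median 0.32), and 1 rose, Esrra, a nuclear receptor for oxidative genes, by 0.88 in the authors' deposited table (adjusted p 0.0395). Egln3, a hypoxia-responsive prolyl hydroxylase, stood at 0.75, and the AMPK subunits Prkab2 and Prkaa2 at 0.79 and 0.70, none called. Hif1a, the hypoxia factor, stood at -0.04 in the authors' deposited table (adjusted p 0.947); Bsg and Hif1a were named for their known roles after their values had been seen.

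How many members were called depended on how libraries were scaled. Scaled to an equal summed CPM in both genotypes, which lowers each log2 fold change by 0.21, 0 members were called higher and 2 lower, Eno2 and Pfkp, and Slc16a3 was no longer called (adjusted p 0.0618). Over all genes 63 were then called higher and 568 lower (0.429% and 3.86%, 4.29% in all), against 201 and 247 as deposited. Centred on the median of all genes, 2 members were called higher (Slc16a3 and Gyg1) and 1 lower, against 1.63% of all genes in each direction (3.26% in all). Centred on the shared structural genes of muscle fibres, 0 members were called higher and 11 lower, against 0.184% and 64.2% of all genes (64.4% in all). The call rule mattered as well. With a mean of at least 10 CPM the 2 calls stood, 1 in each direction, against 1.71% higher and 0.757% lower of the genes that passed (2.47% in all). At an adjusted p under 0.1, 6 members were higher and 1 lower, against 2.76% and 2.50% (5.26% in all). With each likelihood ratio divided by 1.96, 0 members were called, against 0.0272% of all genes higher and 0.068% lower (0.0952% in all).

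Copies of glycolytic genes were looked for among the deposited descriptions, since reads may be split between near-identical genes. Besides the enolase above, 5 copies of 4 members (Tpi1, Ldha, Pkm and Eno1) were measured, all above 0 and none called. The largest by level was LOC100911515, described as triosephosphate isomerase-like, at 1.15 in the authors' deposited table, against 1.03 for Tpi1. RGD1562690, described as similar to Ldha, stood at 1.52, and summed with Ldha the log2 fold change was 0.88, against 0.87 for Ldha alone. The symbol Gapdh was not found among the measured genes, but 2 rows named LOC108351137 carried its description and stood at 0.61 and 0.75 in the authors' deposited table.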

How the data were processed

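Total RNA from frozen thyroarytenoid muscle was sequenced in 3 Pink1-/- and 4 WT rats, with Illumina TruSeq libraries per the labels' protocols. The submitters' processing notes name RSEM and edgeR 3.9 without saying what each did. Not given in the sources used here: aligner, genome build, annotation, strand setting, low-count filter and scaling. Per the file headers, the deposited table gives for each gene a log2 fold change, a mean log2 CPM, a likelihood ratio (a test score), a p-value and its adjusted form. Each deposited p-value is what its likelihood ratio gives under chi-square on 1 degree of freedom. No values per library were used, so depth and its precision are unknown.

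Members were matched by symbol; no member symbol was repeated. A gene was called at a deposited adjusted p under 0.05 over all 14702 genes, and no test was added. SEs, intervals, implied CPM (weighted by 3 and 4 rats) and the alternatives were computed with Python 3.11.15, numpy 2.4.6, pandas 2.3.3 and scipy 1.17.1. Rescaling and adjustment code was tested on simulated data. The alternatives were 3 other scalings, a minimum mean CPM of 10, deflated likelihood ratios, other thresholds and summing copies. Genes with full values were the called members, the isoform pairs and the 10 members with the smallest p, then up to 4 genes per other list and up to 2 per cell type list by smallest p. The members and lists were chosen with earlier results of these data known.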

Additional observations from a re-analysis of the deposited data

How the results depend on the processing

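The labels give no pairing of rats, so no paired analysis was run. Because the table holds no values per library, leaving out each rat and the DESeq2 fit were not run. Scaling to equal summed CPM lowered every log2 fold change by 0.21, left 30 of 40 members above 0 with a median of 0.48, turned Pgam1 to -0.017, ended the call of Slc16a3 (adjusted p 0.0618), called Pfkp (0.0410) beside Eno2, giving 0 higher and 2 lower, and left 0 calls among the other glycolysis enzymes, other glycogen genes and regulators. With equal summed CPM, 4.29% of all genes were called, 0.429% higher and 3.86% lower. Centring on all genes' median added Gyg1 (adjusted p 0.0410), giving 2 higher, and gave 2 calls among the other transport genes. Over all genes 3.26% were then called, 1.63% in each direction. Centring on shared muscle fibre genes lowered every value by 0.75; 64.4% of all genes were then called, so its counts say little of the members. It called 11 members, 0 higher and 11 lower, and left 18 above 0 with a median of -0.060. It called 8, 7, 9 and 10 genes of the other glycolysis, glycogen, transport and regulator lists, 0 shared structural and 9 slow fibre genes. Members that changed sign under it were Slc2a4 (-0.0027), Slc16a1 (-0.50), Hk2 (-0.24), Pfkfb1 (-0.14), Pfkfb4 (-0.28), Aldoc (-0.41), Pgk1 (-0.14), Pgam1 (-0.56), Phkb (-0.037), Gbe1 (-0.35), Ugp2 (-0.26), Ppp1r3a (-0.083) and Ppp1r3c (-0.21). Dividing likelihood ratios by their median excess, 1.96, left 0 members called, 0 higher and 0 lower, and 0 genes of each pathway and fibre list; over all genes 14 were called. With a mean CPM of at least 10, both member calls held and the slow fibre list held 1 call, against 2.47% of the genes that passed. At an adjusted p under 0.1, 7 members were called, 6 higher, against 5.26% of all genes, 2.76% higher. At an unadjusted p under 0.05, 18 were, 16 higher and 2 lower, against 17% of all genes, 9.04% higher and 7.99% lower. Summing copies, an alternative chosen after seeing the data, as were those for the other lists, changed no sign and moved no member by more than its SE. The 12 isoform differences are the same under every scaling.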
